A study of Homo sapiens with 6 samples.

Results

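The interleukin-1 (IL-1) family genes examined here were 10 members chosen by symbol from a table of 60664 genes. These were the ligands IL1A, IL1B, IL18, IL33 and IL36G, the antagonist IL1RN, the receptors IL1R1, IL1R2 and IL1RAP, and the signalling gene IRAK2. Expression was measured by RNA sequencing in PC9OR, labelled as human lung cancer cells, in 3 si-GLMP libraries (GLMP knockdown) and 3 NC libraries (control). PC9 is a lung adenocarcinoma line with an activating EGFR mutation. GLMP encodes a glycosylated lysosomal membrane protein, and the series title names EGFR inhibitor resistance, autophagy and RhoA. The labels used here name no drug, time after knockdown or number of cultures, and all 6 libraries come from 1 line, so p-values reflect the spread among these 6 libraries, which may be purely technical. Of the 10 members, 8 had enough reads to be tested, and IL33 and IL36G did not.

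IL-1 alpha and IL-1 beta, the products of IL1A and IL1B, bind the receptor IL1R1, which then recruits the accessory chain IL1RAP and passes the signal through MYD88 and the IRAK kinases to NF-kB and MAP kinases. IL1RN encodes a receptor antagonist that occupies IL1R1 without signalling, and IL1R2 is a decoy that binds ligand and carries no signalling domain. IL-18, IL-33 and the IL-36 cytokines are relatives with receptors of their own. Epithelial cells hold IL-1 alpha and IL-33 as preformed alarm signals, while IL-1 beta and IL-18 are cut to their active form, classically by caspase-1.

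Library totals ran from 20313899 to 21041277 counts in si-GLMP and from 19896875 to 22372878 counts in NC, so that 3 counts in a library corresponded to between 0.133 and 0.151 CPM (read counts scaled to a common library total, with TMM factors). GLMP had 82, 61 and 65 counts in the si-GLMP libraries, against 309, 344 and 347 in the NC libraries. Its log2 fold change was -2.25 ± 0.14 (SE, adjusted p = 1.16e-18, edgeR). In the annotation, 17.5% of the GLMP exonic length overlaps TMEM79 on the opposite strand. NC replicate 2 differed most from the other NC libraries: the chi-square per degree of freedom of its counts was 10.3 against NC replicate 1 and 11.9 against NC replicate 3, and 2.23 between those 2. Between si-GLMP libraries it was 4.74 to 8.95. The 13 mitochondrially encoded mRNAs of NC replicate 2 took 8.73% of the counts, against 6.55% and 6.49% in the other NC libraries and 5.18% to 5.49% in si-GLMP. Epithelial markers summed to between 8304 and 9294 CPM in si-GLMP and between 9109 and 9384 CPM in NC, with 2 of 6 higher and 1 lower, whereas the lung lineage markers NKX2-1, NAPSA, SFTPB and SFTPC together reached at most 0.775 CPM in any library. Of 10 leukocyte markers, LYZ, TYROBP and MS4A1 had 0 counts in every library and 1 was called, CSF1R, which was higher in si-GLMP. The leukocyte sum lay between 31.3 and 36.7 CPM in si-GLMP and between 18.3 and 23.7 CPM in NC. Most of it was CSF1R, with 28.7 to 32.5 CPM in si-GLMP and 15.5 to 20.7 CPM in NC. Of 5 fibroblast markers 1, COL1A1, was higher and COL3A1 had 0 counts throughout. The fibroblast sums were 10.4 to 12.0 CPM in si-GLMP and 5.59 to 7.13 CPM in NC. Most of each was COL1A1, with 9.34 to 10.7 CPM in si-GLMP and 4.53 to 6.38 CPM in NC. The 4 endothelial markers summed to 6.83 to 7.64 CPM in si-GLMP and 4.92 to 7.68 CPM in NC. In a bulk library, fewer cells that carry a transcript and less of it per cell cannot be told apart. Whether other cell types were present or had any part in the results was not tested.

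After GLMP knockdown, 5 of the 8 tested members were higher, 1 was lower and 2 did not pass the threshold of an edgeR quasi-likelihood adjusted p under 0.05. Among all 15900 tested genes, 12.0% were higher and 11.3% lower by the same rule. IRAK2 and IL1RAP changed most, each about doubling, followed by IL1A, IL1RN and IL1B, and IL18 was the member that fell. All 8 cleared the low-count filter in both groups. Their median log2 fold change was 0.55, and it was 0.00 over all tested genes. The groups' CPM ranges were disjoint in 7 of the 8, where 36.5% of all tested genes had disjoint ranges. Here si-GLMP lay above NC in 6 members and below in 1, and among all tested genes it lay above in 18.5% and below in 17.9%. IRAK2 and IL1RAP also exceeded a log2 fold change of 1, as did 1.10% of all tested genes in the upward direction. The 10 members belong to one pathway and were chosen with earlier results of these data known. These counts describe them without a test of the list and are not independent evidence of their direction.

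**Figure D1:**
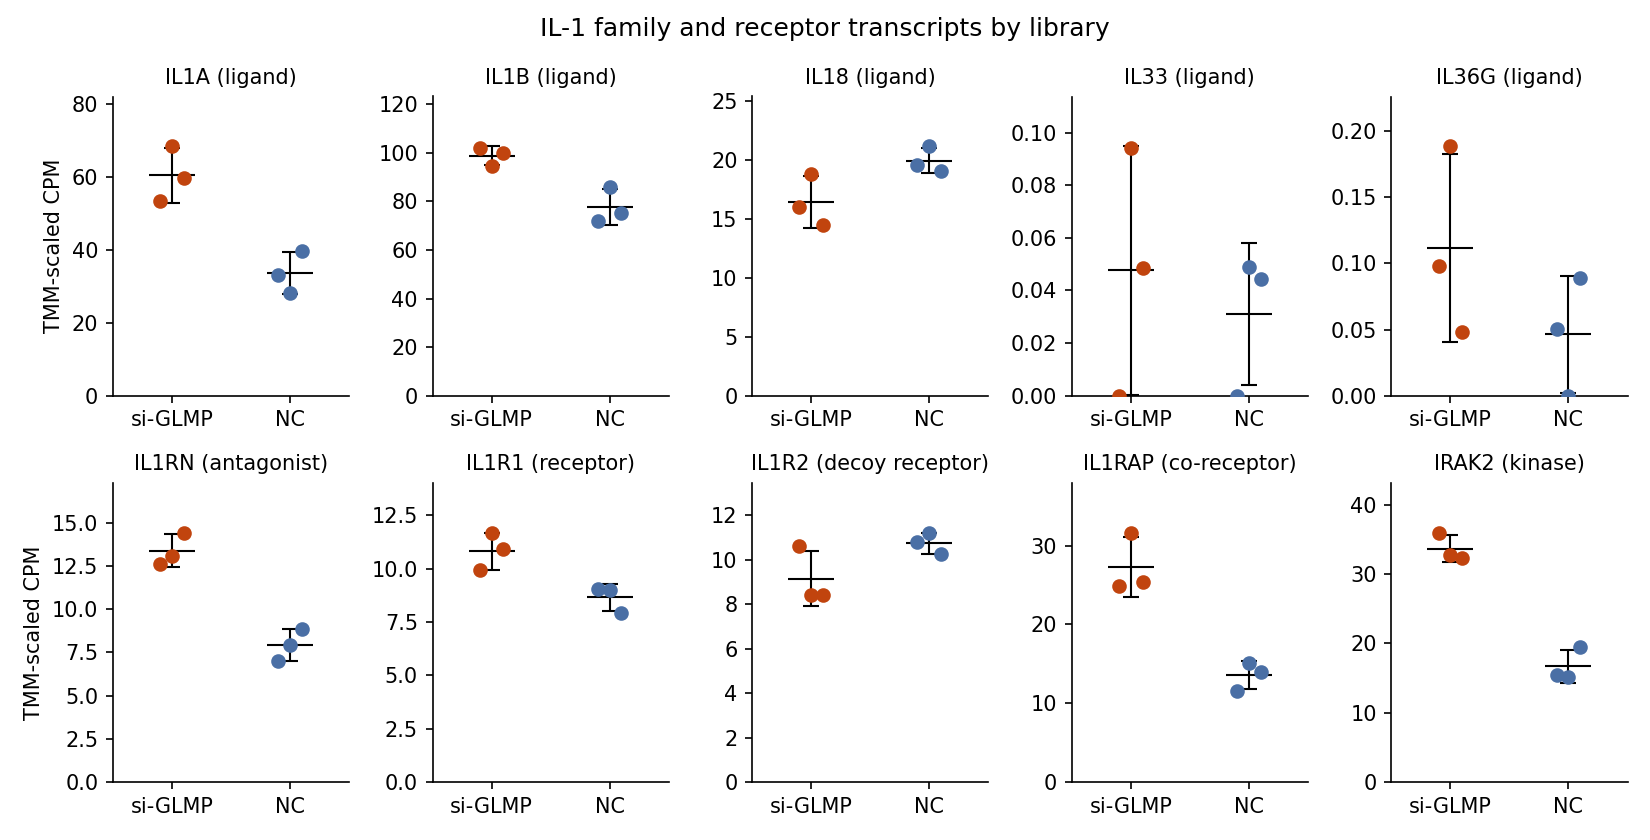
TMM-scaled CPM (vertical axes, each starting at 0) of the 10 members in 3 si-GLMP and 3 NC libraries. Points are libraries, the horizontal dash is the mean and bars are the SD. The si-GLMP points lie above all NC points for IL1A, IL1B, IL1RN, IL1R1, IL1RAP and IRAK2 and below them for IL18, while IL33 and IL36G stay under 0.2 CPM.

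The sequence around the annotated transcription starts is shown for the members with the largest rises and for the main ligands. RefSeq promoter windows (GRCh38.p14), running from 250 bases before to 50 bases after a start, were found for 9 of the 10 members, 17 windows in all. Capitals mark matches to the AP-1 motif TGANTCA, searched on both strands. The windows are IL1A, chr2:112784444-112784743, minus strand; IL1B, chr2:112836730-112837029, minus strand; IL1RAP, chr3:190513835-190514134, plus strand; and IRAK2, chr3:10164669-10164968, plus strand.
IL1A: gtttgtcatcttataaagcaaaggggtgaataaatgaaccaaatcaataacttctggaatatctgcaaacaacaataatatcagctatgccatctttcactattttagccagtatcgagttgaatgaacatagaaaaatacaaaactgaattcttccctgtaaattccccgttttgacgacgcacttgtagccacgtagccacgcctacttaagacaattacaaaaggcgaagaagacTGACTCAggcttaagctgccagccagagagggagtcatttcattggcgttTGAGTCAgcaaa
IL1B: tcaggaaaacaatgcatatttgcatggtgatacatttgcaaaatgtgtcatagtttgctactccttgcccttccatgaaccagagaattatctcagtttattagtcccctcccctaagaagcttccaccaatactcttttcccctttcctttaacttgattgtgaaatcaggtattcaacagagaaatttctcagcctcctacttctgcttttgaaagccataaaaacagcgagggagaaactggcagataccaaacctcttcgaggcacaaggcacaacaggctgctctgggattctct
IL1RAP: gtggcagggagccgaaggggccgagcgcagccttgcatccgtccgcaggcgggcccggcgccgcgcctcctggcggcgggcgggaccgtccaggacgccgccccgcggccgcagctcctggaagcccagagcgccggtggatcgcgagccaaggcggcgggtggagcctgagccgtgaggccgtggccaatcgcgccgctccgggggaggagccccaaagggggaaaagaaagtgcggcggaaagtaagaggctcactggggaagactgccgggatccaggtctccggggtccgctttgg
IRAK2: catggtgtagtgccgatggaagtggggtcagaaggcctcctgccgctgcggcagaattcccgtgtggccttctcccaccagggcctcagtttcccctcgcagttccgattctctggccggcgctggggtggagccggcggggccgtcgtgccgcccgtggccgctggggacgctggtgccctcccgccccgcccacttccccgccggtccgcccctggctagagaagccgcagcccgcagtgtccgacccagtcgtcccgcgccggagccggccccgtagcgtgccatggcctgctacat

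The IL1A window holds the AP-1 motif at 2 places, from 12 to 6 bases before the start and from 38 to 44 bases after it. The same 2 matches appear in the window of the second annotated IL1A start, and 1 of the 3 IL1RN windows holds another, whereas the windows of IL1B, IL1RAP and IRAK2 hold none. Of all 35116 windows, 7.71% hold at least 1 match. The NF-kB motif, which overlaps the AP-1 motif nowhere in these windows, was matched in 1 of the 17, a window of IL1R2, and in 11.3% of all windows. The ligand windows are AT-rich, with a GC content of 39.7% for IL1A and 42.3% for IL1B, and those of IL1RAP (73.7%) and IRAK2 (72.0%) are GC-rich, beside a median of 58.7% over all windows. A match is a description of letters in the window and shows no binding.

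Both classical IL-1 ligands were higher in si-GLMP, IL1A more than IL1B. IL1A (ENSG00000115008; GRCh38 chromosome 2, 112773915 to 112784590, minus strand), the gene of the alarm cytokine IL-1 alpha, had 53.3, 68.4 and 59.7 CPM in si-GLMP replicates 1 to 3, against 33.2, 28.2 and 39.6 CPM in NC replicates 1 to 3. Every si-GLMP library exceeded every NC library, and the lowest NC value was in replicate 2. The means were 60.5 ± 7.58 CPM in si-GLMP and 33.7 ± 5.71 CPM in NC (SD, n = 3 each), and the log2 fold change was 0.84 ± 0.10 (SE; adjusted p = 1.86e-06, edgeR). Without NC replicate 2 the log2 fold change was 0.73 (edgeR adjusted p = 5.44e-08).

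IL1B (ENSG00000125538; chromosome 2, 112829751 to 112836903, minus strand), which encodes the precursor of IL-1 beta, had 101.9, 94.4 and 100.1 CPM in si-GLMP, against 72.1, 86.1 and 75.2 CPM in NC. The groups did not overlap, and NC replicate 2 was the highest NC library here. The means of 98.8 ± 3.88 CPM in si-GLMP and 77.8 ± 7.38 CPM in NC (SD, n = 3 each) correspond to a rise of 0.34 ± 0.07 on the log2 scale (adjusted p = 0.000239, edgeR). The transcript thus rose 1.27-fold, against 1.79-fold for IL1A.

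IL18 went the other way by a small margin. Its product, IL-18, is a ligand that epithelia store as a precursor. IL18 (ENSG00000150782; chromosome 11, 112143251 to 112164117, minus strand) had 16.0, 18.8 and 14.5 CPM in si-GLMP, against 19.6, 21.2 and 19.1 CPM in NC. The highest si-GLMP library came close to the lowest NC library, and the log2 fold change was -0.28 ± 0.11 (adjusted p = 0.0472, edgeR). This call did not hold in 5 of the 6 fits that left out a library, where the edgeR adjusted p was 0.0986, 0.160 and 0.0684 with NC replicate 1, 2 or 3 left out, and 0.111 and 0.299 with si-GLMP replicate 1 or 3 left out. DESeq2 did not call it either (adjusted p = 0.0706).

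The other ligand genes were at the floor of detection. IL33 (ENSG00000137033; chromosome 9, 6215786 to 6257983), the gene of a nuclear alarm cytokine, had 0, 2 and 1 counts in si-GLMP, against 0, 1 and 1 in NC. IL36G (ENSG00000136688; chromosome 2, 112973203 to 112985665), whose IL-36 gamma product is typical of squamous epithelium, had 2, 4 and 1 counts in si-GLMP, against 1, 0 and 2 in NC. The IL36G sums were 7 counts in si-GLMP (exact Poisson 95% interval 2.81 to 14.4) and 3 in NC (0.619 to 8.77), and these intervals, which cover counting error only, overlap. Neither gene passed the filter on low counts, and at this depth no difference was detectable.

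IL1RN, the natural brake on IL1R1, was higher beside the ligands. IL1RN (ENSG00000136689; chromosome 2, 113107214 to 113134016, plus strand) had 12.6, 13.1 and 14.4 CPM in si-GLMP, against 7.03, 7.93 and 8.83 CPM in NC. No si-GLMP library reached down into the NC range, and the log2 fold change was 0.75 ± 0.13 (adjusted p = 4.81e-06, edgeR). Gene counts do not separate the secreted from the intracellular forms of the antagonist.

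Among the receptor members, the gene of the shared accessory chain was called higher and those of the ligand-binding chains were not called. IL1RAP (ENSG00000196083; chromosome 3, 190514051 to 190659750, plus strand), which serves the receptors of IL-1, IL-33 and IL-36, had 24.8, 31.6 and 25.4 CPM in si-GLMP, against 11.6, 15.1 and 13.9 CPM in NC. Its mean was 27.3 ± 3.77 CPM in si-GLMP and 13.5 ± 1.77 CPM in NC (SD, n = 3 each), so the log2 fold change was 1.01 ± 0.11 (adjusted p = 1.35e-10, edgeR). All si-GLMP libraries lay well above the NC range. In the annotation, 4.63% of the IL1RAP exonic length overlaps another gene on the same strand.

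IL1R1 (ENSG00000115594; chromosome 2, 102064544 to 102179874, plus strand), the signalling receptor, had 9.92, 11.6 and 10.9 CPM in si-GLMP, against 9.04, 9.00 and 7.90 CPM in NC. The groups did not overlap, but the log2 fold change of 0.33 ± 0.13 (95% interval 0.07 to 0.58) missed the threshold (adjusted p = 0.0543, edgeR). It passed without si-GLMP replicate 1 (adjusted p = 0.0387, edgeR) and with upper-quartile scaling (0.0474). IL1R2 (ENSG00000115590; chromosome 2, 101991844 to 102028544, plus strand), the decoy, had 10.6, 8.44 and 8.43 CPM in si-GLMP, against 10.8, 11.2 and 10.3 CPM in NC. Here si-GLMP replicate 1 lay within the NC range, and the log2 fold change of -0.23 ± 0.13 (95% interval -0.49 to 0.02) was not called (adjusted p = 0.197, edgeR).

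IRAK2 (ENSG00000134070, chromosome 3, 10164865 to 10243743, plus strand) encodes an IRAK family member of the MYD88 complex. Its product sustains signalling from IL-1 and Toll-like receptors. IRAK2 had the smallest adjusted p of the members. It had 36.0, 32.8 and 32.3 CPM in si-GLMP, against 15.4, 15.2 and 19.5 CPM in NC. The si-GLMP libraries were close to each other, and NC replicate 3 was the highest of the controls. The means were 33.7 ± 2.01 CPM in si-GLMP and 16.7 ± 2.42 CPM in NC (SD, n = 3 each), and IRAK2 rose by 1.01 ± 0.10 on the log2 scale (adjusted p = 4.88e-12, edgeR). The tested genes whose log2 CPM over the 6 libraries was most like that of IRAK2 were VPS37C (Pearson r 0.999), AVPI1 (0.998), SIRPB2, PBXIP1 and CYB5R1 (each 0.997). The 2 groups lie apart in each of these genes, so r largely restates the group difference. Their log2 fold changes ran from 0.41 for VPS37C to 1.26 for SIRPB2, and each was called.

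**Figure D2:**
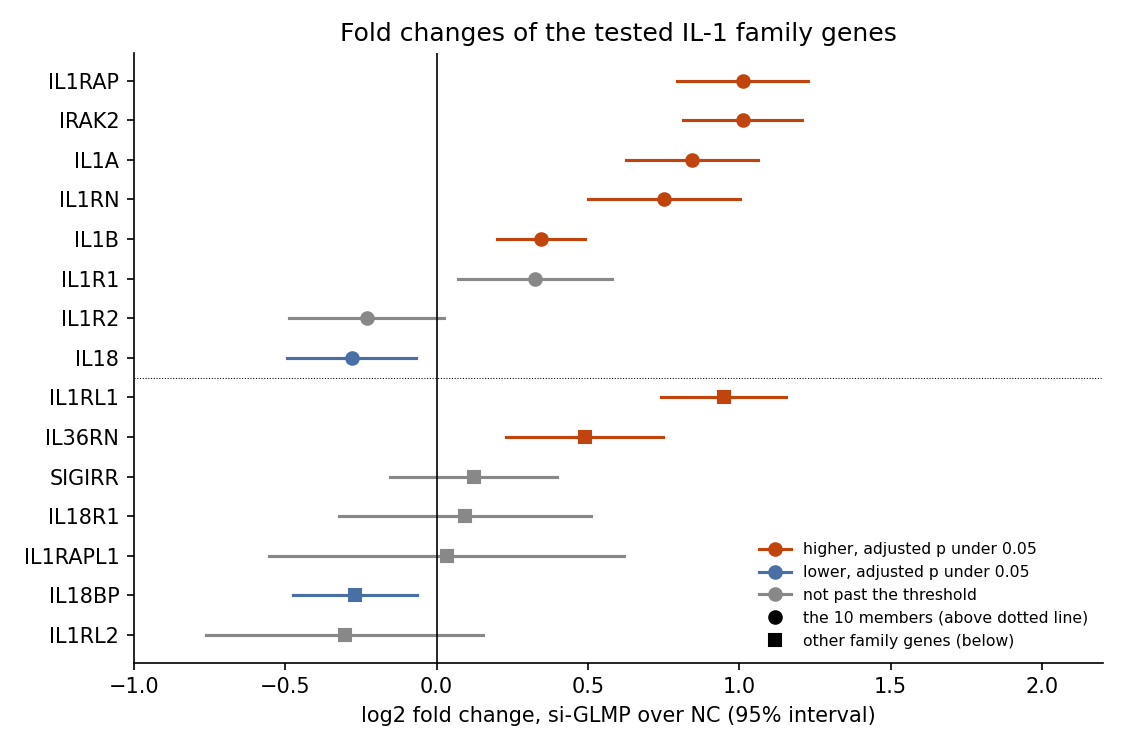
Log2 fold changes of si-GLMP over NC (horizontal axis) with 95% intervals for the 8 tested members (circles, above the dotted line) and the 7 other tested IL-1 family genes (squares, below). Intervals of IL1RAP, IRAK2, IL1A, IL1RN, IL1B, IL1RL1 and IL36RN lie above 0, and these genes are called higher. Those of IL18 and IL18BP lie just below 0, and both are called lower. The interval of IL1R1 also lies above 0, but IL1R1 is not called after adjustment.

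Relatives outside the 10 members also changed in part. IL1RL1, the receptor chain of IL-33 also called ST2, had 30.0, 43.3 and 34.5 CPM in si-GLMP, against 19.7, 18.3 and 17.8 CPM in NC. The si-GLMP values were all higher and more spread, and the log2 fold change was 0.95 ± 0.10 (adjusted p = 1.18e-09, edgeR), while its ligand gene IL33 had at most 2 counts in any library. Of 7 other receptor genes, 5 were tested and IL1RL1 was the 1 called, beside 23.3% of all tested genes called in either direction. The IL-36 receptor gene IL1RL2 (log2 fold change -0.30), the inhibitory receptor gene SIGIRR (0.12) and the IL-18 receptor gene IL18R1 (0.09) were not called, with edgeR adjusted p of 0.375 or more. Of 6 other ligand and antagonist genes, 2 were tested and both passed, too few to set against that share. IL36RN, the antagonist of the IL-36 receptor, rose to 10.9 ± 1.16 CPM in si-GLMP, against 7.73 ± 0.296 CPM in NC (SD, n = 3 each; log2 fold change 0.49 ± 0.13, adjusted p = 0.00330, edgeR). IL18BP, the soluble trap of IL-18, fell to 17.3 ± 1.43 CPM in si-GLMP, against 20.8 ± 1.12 CPM in NC (log2 fold change -0.27 ± 0.10, adjusted p = 0.0469, edgeR). Its call did not hold in any of the 6 fits that left out a library (edgeR adjusted p from 0.0501 to 0.202), and 15.6% of its exonic length overlaps NUMA1 on the opposite strand.

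Many of the family genes lie on chromosome 2, in a ligand cluster and a receptor cluster. Of the members, IL18 lies on chromosome 11, IL33 on chromosome 9, and IL1RAP and IRAK2 on chromosome 3. Between IL1A and IL1RN lie 9 protein-coding genes, all of the IL-1 family and counting both ends. Of these, 4 were tested (IL1A, IL1B, IL36RN and IL1RN) and all 4 were higher, where 12.0% of all tested genes were. IL1A, IL1B and IL1RN are members already counted above, so IL36RN alone adds to them. The other 5 had at most 5 counts in any library. Of the 4 flanking genes, 2 on each side, CKAP2L was lower (-0.37; adjusted p = 0.00114, edgeR) and PAX8 higher (0.46; adjusted p = 0.00462, edgeR), and NT5DC4 (0.16) and PSD4 (-0.01) were not called. In the receptor cluster from IL1R2 to IL18RAP, 5 of 6 genes were tested and IL1RL1 was the 1 called. This is close to the 23.3% called in either direction over all tested genes. Of its 4 flanking genes 2 were tested, SLC9A2, which was lower (-0.57; adjusted p = 0.00495, edgeR), and MAP4K4 (-0.04), which was not called. The flanking genes were chosen by position.

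Per kilobase of exonic length, IL1B and IL1A had the highest levels of the members in both groups, and IL33 and IL36G the lowest. In si-GLMP the order was IL1B (31.9 ± 1.25 CPM per kilobase), IL1A (28.5 ± 3.57), IRAK2 (9.68 ± 0.577), IL18 (6.26 ± 0.835), IL1RN (4.11 ± 0.290), IL1R2 (2.98 ± 0.408), IL1RAP (2.36 ± 0.326) and IL1R1 (1.53 ± 0.122), with SD and n = 3. Only IL1B and IL1A overlapped between neighbours in this order. In NC the order was IL1B (25.1 ± 2.38), IL1A (15.9 ± 2.69), IL18 (7.60 ± 0.409), IRAK2 (4.79 ± 0.695), IL1R2 (3.50 ± 0.156), IL1RN (2.44 ± 0.277), IL1R1 (1.22 ± 0.0915) and IL1RAP (1.17 ± 0.153). Here IL1R1 and IL1RAP overlapped, as did IL36G and IL33 at the floor. IRAK2 stood above IL18 and IL1RN above IL1R2 in si-GLMP, and both pairs had the other order in NC. IL1RAP stood above IL1R1 in every si-GLMP library, whereas in NC the means were close and the order differed between libraries. Without division by exonic length, IL1RAP stood above IL1R1 in NC as well, with 11.6, 15.1 and 13.9 CPM against 9.04, 9.00 and 7.90. Orders between genes therefore depend on the annotated exonic lengths, which may differ from those of the transcripts expressed.

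Because the members changed by unequal amounts, 6 ratios of their levels per kilobase were compared. IL1B over IL1RN, agonist to antagonist, was 8.50, 7.58 and 7.29 in si-GLMP, against 10.8, 11.4 and 8.96 in NC, with no overlap. IL1A over IL1RN was 6.94 ± 0.920 in si-GLMP and 6.52 ± 0.948 in NC (SD, n = 3 each), and the groups overlapped. IL1R1 over IL1R2, signalling to decoy receptor, was 0.406, 0.599 and 0.561 in si-GLMP, against 0.363, 0.349 and 0.334 in NC. IL1RAP over IL1R1, accessory to binding chain gene, was 1.54 ± 0.118 in si-GLMP and 0.964 ± 0.157 in NC, with no overlap. IL18 over IL1B was 0.197 ± 0.0336 in si-GLMP and 0.303 ± 0.0159 in NC. The 2-sided exact permutation test gave p = 0.1 (0.15 adjusted over the 6 ratios) for each of the 4 ratios without overlap, which is the smallest p that 3 against 3 libraries allow. The same exact permutation test gave p = 0.6 for IL1A over IL1RN and p = 0.2 for IL1B over IL1A, which was 1.14 ± 0.182 in si-GLMP and 1.63 ± 0.415 in NC, with the NC value of 2.10 in replicate 2 far above the other NC libraries.

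**Figure D3:**
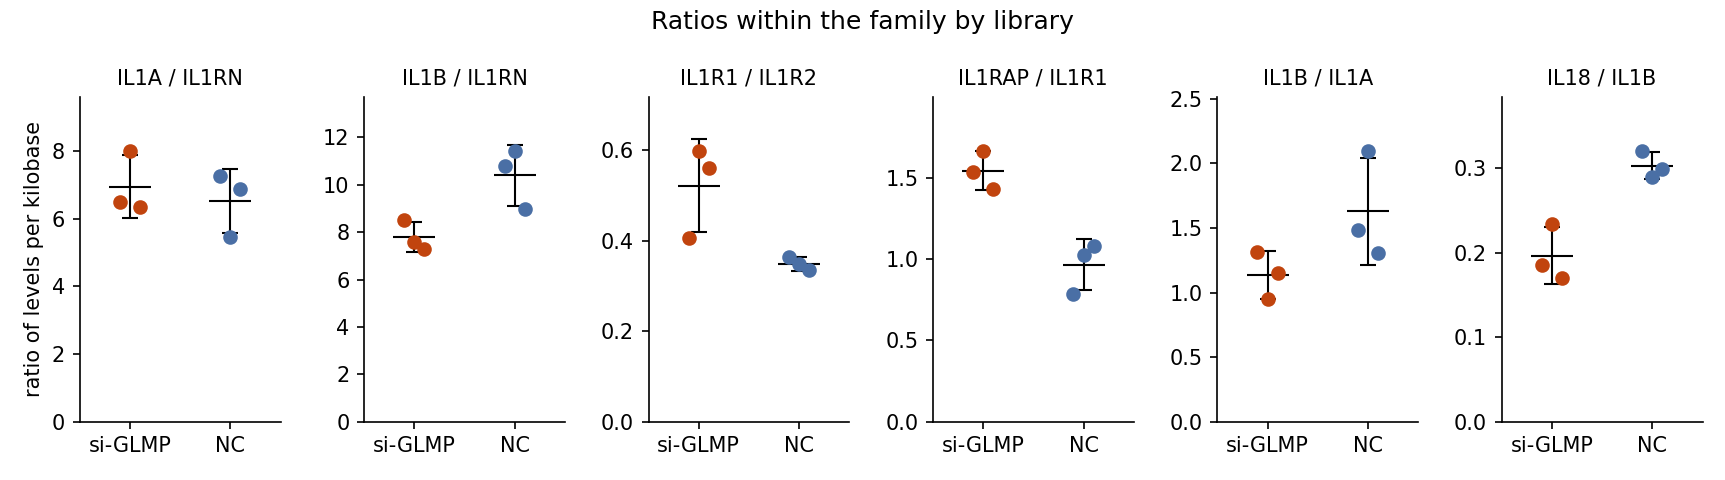
Ratios of exonic-length-scaled levels (vertical axes, from 0) for 6 pairs of members in 3 si-GLMP and 3 NC libraries. Points are libraries, dashes means and bars SD. IL1B / IL1RN and IL18 / IL1B are lower, and IL1R1 / IL1R2 and IL1RAP / IL1R1 higher, in all si-GLMP libraries, whereas IL1A / IL1RN and IL1B / IL1A overlap.

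Genes known to be induced by IL-1 in epithelial cells were mostly higher in si-GLMP. Of 34 listed genes 23 were tested, 22 were higher and 1 was lower, with a median log2 fold change of 0.70. Among all tested genes 12.0% were higher and 11.3% lower, with a median of 0.00. Many of these genes are targets of NF-kB and also answer to signals other than IL-1. The list was written with earlier results of these data known and is not independent evidence of its direction. CXCL1 and IL32, chosen here because of their counts, passed the low-count filter through the si-GLMP libraries alone, and of the other 21 genes 20 were higher (median 0.58). CXCL8, the neutrophil chemokine, had 31.5 ± 6.68 CPM in si-GLMP and 11.8 ± 0.578 CPM in NC (SD, n = 3 each; log2 fold change 1.42 ± 0.12, adjusted p = 2.56e-12, edgeR). SOD2, a mitochondrial superoxide dismutase, rose by 0.86, the adhesion molecule gene ICAM1 by 0.75 and ZC3H12A, an RNase that degrades cytokine mRNAs, by 0.70 on the log2 scale. ICAM1 exons share 23.6% of their length with opposite-strand genes. LCN2, which encodes an iron-trapping lipocalin, had the largest rise of the list (log2 fold change 2.21 ± 0.26, adjusted p = 2.05e-09, edgeR) from a low level of 3.57 ± 0.689 CPM in si-GLMP and 0.770 ± 0.168 CPM in NC. SERPINB2, a protease inhibitor gene, was the lower one (-0.69, adjusted p = 0.0146, edgeR), and it shares 19.9% of its exonic length with SERPINB10. LCN2 and SERPINB2 were named after their values were seen.

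Of 18 further genes of the complex that joins the receptor to NF-kB, 17 were tested, 3 were higher, 1 was lower and 13 did not pass, with a median of 0.01. These 4 calls are close to the 23.3% called in either direction over all tested genes. TOLLIP, an adaptor that restrains IRAK1, rose by 0.27 (adjusted p = 0.00792, edgeR), and the kinase gene IRAK1 rose by 0.19 (adjusted p = 0.0249, edgeR) to 707 ± 45.1 CPM in si-GLMP, against 621 ± 26.5 CPM in NC. MAP3K7, which encodes the kinase TAK1, fell by 0.26 (adjusted p = 0.00481, edgeR), and TAB3, a partner of TAK1, rose by 0.19 (adjusted p = 0.0441, edgeR). The IRAK1 and TAB3 calls were each lost in 4 of the 6 fits that left out a library, and the TOLLIP call in 1, without NC replicate 1 (adjusted p = 0.0624, edgeR). For IRAK1 the edgeR adjusted p was 0.0531 and 0.134 without NC replicate 2 or 3 and 0.110 and 0.0834 without si-GLMP replicate 1 or 3. For TAB3 it was 0.176 and 0.125 without NC replicate 1 or 3 and 0.193 and 0.178 without si-GLMP replicate 2 or 3.

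Of 26 genes that process or release IL-1 family cytokines, 19 were tested, 3 were called higher, 3 were called lower and 13 were uncalled; the median was 0.04. These shares are near the 12.0% higher and 11.3% lower over all tested genes. CTSS, the protease cathepsin S, rose to 6.87 ± 1.70 CPM in si-GLMP, against 3.56 ± 0.548 CPM in NC (log2 fold change 0.94 ± 0.18, adjusted p = 3.85e-05, edgeR), and NINJ1, which ruptures the membrane of dying cells, rose by 0.56 (adjusted p = 1.52e-06, edgeR). NLRP1, the main inflammasome sensor of human epithelium, fell to 10.5 ± 0.941 CPM in si-GLMP, against 16.6 ± 1.48 CPM in NC (log2 fold change -0.66 ± 0.12, adjusted p = 1.26e-05, edgeR), and the pore protein gene GSDME had -0.51 (adjusted p = 7.13e-07, edgeR). CASP1, which encodes the enzyme that matures IL-1 beta and IL-18 and was named here for that role, was low in both groups. It had 1.35 ± 0.233 CPM in si-GLMP and 1.74 ± 0.376 CPM in NC, with a log2 fold change of -0.37 (95% interval -0.93 to 0.20, adjusted p = 0.382, edgeR). Transcript counts do not measure precursor cleavage or cytokine release.

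**Figure D4:**
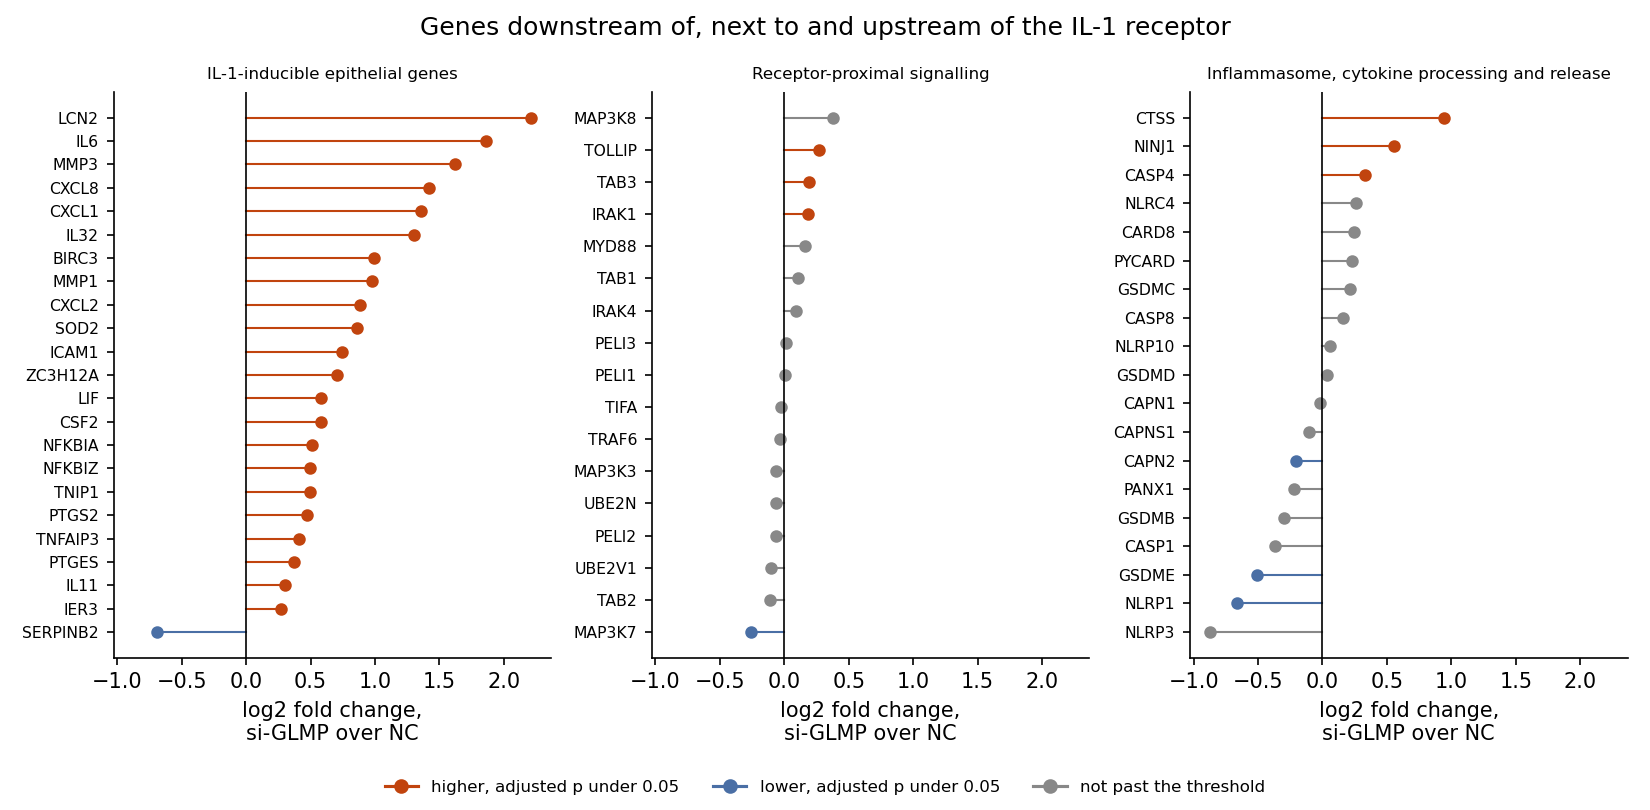
Log2 fold changes of si-GLMP over NC (horizontal axes) for the tested genes of 3 lists, each gene a point joined to 0 and coloured by its edgeR call. Of the IL-1-inducible genes 22 of 23 lie to the right of 0 and are called, while 13 of 17 signalling genes and 13 of 19 processing genes do not pass the threshold.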

How the data were processed

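The authors deposited a table of raw read counts per gene with no normalization, made with HISAT2 on GRCh38 per the submitters' processing notes. How reads were counted, with which annotation and strand setting, is not given in the sources used here. Reads of genes that overlap on opposite strands may therefore be mixed. Groups and replicate numbers came from the sample titles. All 6 count columns were used, with 0 left over.

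Counts were tested with edgeR 4.0.16 in R 4.3.3: filterByExpr (minimum count 10, 15900 genes kept), TMM scaling, robust quasi-likelihood F test with group as the only term, and Benjamini-Hochberg adjustment over all tested genes (threshold 0.05). "edgeR adjusted p" means this value. Standard errors were derived from the F statistic. Exonic lengths, positions and overlaps came from GENCODE 29 (GRCh38), and promoter windows from RefSeq. The statistics were tested on simulated data. The alternatives were RLE and upper-quartile scaling, no low-count filter, 1 CPM in 3 libraries, DESeq2 1.42.0, limma-voom (limma 3.58.1), each library left out, the replicate number as a block, and an absolute log2 fold change over 1.

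The members and the 5 pathway lists were chosen with earlier results of these data known. Named were GLMP, the 10 members, up to 4 genes per list with the smallest adjusted p, and the 5 genes most correlated with the member of smallest adjusted p (log2 of CPM + 0.5). Others are marked where named.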

Additional observations from a re-analysis of the deposited data

How the results depend on the processing

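IL1A, IL1B, IL1RN, IL1RAP and IRAK2 kept their direction and their call under all 13 refits, with log2 fold changes of 0.73 to 0.98, 0.30 to 0.42, 0.68 to 0.84, 0.89 to 1.09 and 0.95 to 1.14. IL18 kept its direction but lost its call with upper-quartile scaling (-0.27, edgeR adjusted p = 0.0561), with no filter on low counts (-0.28, 0.0849) and with DESeq2 (-0.28, 0.0706), and ranged from -0.39 to -0.19 when a library was left out. IL1R1 was called with upper-quartile scaling (0.33, 0.0474) and ranged from 0.27 to 0.38 when a library was left out. The count of members called lower was 0 in the settings that lost IL18, and 0 to 1 when a library was left out. IL18BP, the 1 lower gene of its list, was lost with upper-quartile scaling, with no filter and with DESeq2 (count 0), and in every fit without a library (0 to 0). Without a library, 1 to 2 signalling genes were higher, where 3 were in the main fit. Of the inducible genes, 18 to 22 were higher without a library, where 22 were in the main fit, and 0 to 1 was lower, SERPINB2. With all libraries, 2 signalling genes were higher under RLE scaling, no low-count filter, DESeq2 or limma-voom. TAB3 lost its call in 8 of the 13 refits. Neither SIGIRR (-0.0121 without NC replicate 2; -0.0121 to 0.241) nor IL18R1 (-0.0127 without NC replicate 2, -0.0341 without si-GLMP replicate 2; -0.0341 to 0.199) was called, and both changed sign when a library was left out. An absolute log2 fold change over 1 left 304 of 3712 genes (175 higher, 129 lower) and 2 of 5 higher members, IL1RAP and IRAK2, and 0 lower. Same-numbered libraries deviated together only weakly (correlations 0.0623, 0.0407 and -0.00618), so the numbers were not taken as pairs. With the replicate block 3972 genes and 6 higher members were called, the sixth being IL1R1 (0.32, edgeR adjusted p = 0.0472), and 1 lower. Scaling moved the median of all genes by under 0.1 on the log2 scale. IL33, IL36G and 11 of the 34 inducible genes had too few counts to test.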
